A study of Mus musculus with 18 samples.

Results

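The interleukin-23 and interleukin-17 axis was described through 8 genes: Il23a, Il12b, Il12a, Il23r, Il17a, Il17f, Il17ra and Il17rc. They were chosen by gene symbol from the 54532 genes of the count table, with earlier results of these data known, so their values below are a description and not independent evidence. The labels and design text do not record which values led to the choice. The 18 mouse libraries were made from the extraction socket of the mandibular first molar, in a control arm and a periodontitis arm. Each arm was sampled on 3 days, and each day has 3 biological replicates. The 6 groups are therefore control at 0 d, control at 3 d, control at 7 d, periodontitis at 0 d, periodontitis at 3 d and periodontitis at 7 d; all of them had the tooth extraction in common. The sources used here do not give strain, age or the way periodontitis was produced.

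Interleukin-23 is a cytokine of myeloid cells made of the p19 chain, encoded by Il23a, and the p40 chain, encoded by Il12b. The same p40 chain pairs with p35, encoded by Il12a, to form interleukin-12. Interleukin-23 acts through a receptor containing the Il23r product and sustains lymphocytes, among them T helper 17 cells and gamma delta T cells, that secrete interleukin-17A and interleukin-17F. These bind a receptor of the Il17ra and Il17rc chains on epithelial, stromal and myeloid cells, which then make chemokines, antimicrobial proteins and matrix proteases; in periodontal tissue the axis is known for neutrophil recruitment and bone loss.

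All 8 genes are protein coding, and no other gene of the table overlaps any of them. In build GRCm38, Il17a lies on chromosome 1 at 20730905 to 20734496 on the plus strand, and Il17f at 20777146 to 20790617 on the minus strand of the same chromosome. The genes are 42649 bases apart, with 0 other genes of the table between them. Il23a lies on chromosome 10 at 128296139 to 128298752, and Il12b on chromosome 11 at 44400063 to 44414033. The promoter windows of Il17a and Il17f, 250 bases before to 50 after the RefSeq start in GRCm38.p6, are shown because these neighbouring genes had their highest mean level in the same group. They are chr1:20730655-20730954 on the plus strand and chr1:20784221-20784520 on the minus strand, and capitals mark matches to AGGTCA, a half-site that nuclear receptors bind, or TGANTCA, the AP-1 site, on either strand.
Il17a: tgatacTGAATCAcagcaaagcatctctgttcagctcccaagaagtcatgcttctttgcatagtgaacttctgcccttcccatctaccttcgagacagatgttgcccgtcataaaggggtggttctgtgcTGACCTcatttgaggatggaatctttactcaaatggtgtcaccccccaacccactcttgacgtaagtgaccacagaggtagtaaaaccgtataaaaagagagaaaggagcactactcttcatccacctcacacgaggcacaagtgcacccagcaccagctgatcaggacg
Il17f: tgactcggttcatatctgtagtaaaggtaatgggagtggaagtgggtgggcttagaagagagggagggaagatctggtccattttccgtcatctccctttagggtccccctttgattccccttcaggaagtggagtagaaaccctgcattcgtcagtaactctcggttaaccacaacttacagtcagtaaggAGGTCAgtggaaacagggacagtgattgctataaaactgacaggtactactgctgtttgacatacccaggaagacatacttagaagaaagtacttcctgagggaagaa
Each window held AGGTCA 1 time, in reverse (TGACCT) in Il17a and forward in Il17f, and 16.3% of the 32851 promoter windows of the RefSeq table held it. The AP-1 letters occurred 1 time in the Il17a window, and 7.81% of all windows held them. These matches did not overlap, and they describe letters, not bound sites.

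Totals were 14139830 to 17763605 counts per library. Levels are given as counts and as CPM, counts scaled to a common library size, mean ± SD over 3 libraries. edgeR's filter on low counts kept 18697 genes, 7 of the 8 members among them; Il12b was not kept. The filter asked for about 0.600 CPM in 3 libraries: Il23a reached it in all 3 periodontitis libraries at 0 d and in 2 other libraries, and Il17a in the periodontitis libraries at 0 d and 3 d and in 1 control library at 3 d. Il17f reached it in 2 periodontitis libraries at 0 d, all 3 at 3 d and 1 control library at 3 d. Members that pass through the group where they are high had to differ, so counts of called members are read only beside the share of all genes called. How many of all genes had groups that did not overlap was not counted, so a lack of overlap below is a description only. Of the 18 libraries, 5 had over 100 CPM of Vip, a neuropeptide of autonomic ganglia: replicate 2 of control at 3 d, replicates 1 and 3 of periodontitis at 0 d, and replicates 1 and 2 of periodontitis at 3 d. The summed level of 10 ganglion neuron genes was 9.20 to 11.2 CPM in the control libraries at 0 d and 40.6 to 1734 CPM in the periodontitis libraries at 0 d. Results are therefore also given without these 5 libraries, so that periodontitis has a single library on each of these days, assumed to vary like the other groups. Other tissue markers differed between the arms at 0 d as well. The summed level of 8 skeletal muscle genes was 71.0 to 1433 CPM in periodontitis and 28.3 to 66.1 CPM in control, with Ttn (3.71 ± 0.97) and Actn3 (1.36 ± 0.32) called higher by edgeR. The tooth and bone genes Dspp, Ambn (-3.47 ± 0.68) and Bglap (-1.24 ± 0.34) were called lower. The summed level of their list, bone, ligament and tooth, was not lower in periodontitis. It was 56081 to 78976 CPM there and 36511 to 62212 CPM in control, and these ranges overlapped. The part of these tissues in the members' differences was not tested beyond a muscle covariate, with which Il23a, Il17a and Il17rc were called at 0 d (edgeR adjusted p = 0.00693, 0.0293 and 0.0318). In bulk tissue, fewer cells of a type and less RNA per cell cannot be told apart.

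At 0 d the p19 gene of interleukin-23 was higher in periodontitis, as were Il17a and, by a smaller step, the receptor chain Il17rc, while no tested member was called lower. Il23a had 49, 42 and 47 counts in the periodontitis libraries at 0 d, against 3, 5 and 3 in the control libraries. The mean level was 2.88 ± 0.0933 CPM in periodontitis and 0.235 ± 0.0773 CPM in control (SD, n = 3 each). The groups did not overlap, and the 3 periodontitis libraries were close to each other. The log2 fold change was 3.57 ± 0.43 (SE; adjusted p = 0.000932 by the quasi-likelihood test of edgeR, with Benjamini-Hochberg adjustment across all genes tested). It was 3.62 when the 5 ganglion-rich libraries were left out (edgeR adjusted p = 0.0416).

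Il17a, the gene of interleukin-17A, had 50, 26 and 29 counts in periodontitis at 0 d, against 6, 0 and 0 in control. Mean levels were 2.18 ± 0.72 CPM and 0.132 ± 0.229 CPM. Every periodontitis library stood above every control library, but 2 control libraries had no read, so the size of the fold is poorly fixed. The log2 fold change was 3.996 ± 0.86 (edgeR adjusted p = 0.0156). It was 3.75 without the ganglion-rich libraries (edgeR adjusted p = 0.267) and 4.05 in a fit of the 0 d libraries alone (edgeR adjusted p = 0.0954), so the call depended on these choices. It was 8.19 without control 0 d replicate 1, which leaves both controls at 0 counts, so this value depends on the prior count. The call was also lost without control 0 d replicate 2 (edgeR adjusted p = 0.0607), control 0 d replicate 3 (0.0621) or periodontitis 0 d replicate 1 (0.0606).

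Il17rc had 306, 210 and 217 counts in periodontitis at 0 d and 153, 161 and 121 in control, or 15.3 ± 2.85 against 9.31 ± 1.68 CPM. The groups did not overlap. Its log2 fold change was 0.71 ± 0.16 (edgeR adjusted p = 0.0188), and 0.68 without the ganglion-rich libraries (edgeR adjusted p = 0.382). The call was lost without control 0 d replicate 3 (edgeR adjusted p = 0.0826) or periodontitis 0 d replicate 1 (0.0965). So 3 of the 7 tested members were called at 0 d, all higher in periodontitis, where 8.27% of all genes tested were called. Il23a and Il17a passed the filter mainly through periodontitis libraries, so this count is a description and not support for a change of the axis.

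The other members did not pass the test at 0 d. Il17f, which encodes the partner cytokine of interleukin-17A, had 9, 18 and 11 counts in periodontitis and 3, 0 and 0 in control, with a log2 fold change of 3.50 ± 1.16 (edgeR adjusted p = 0.0707; DESeq2 adjusted p = 0.0305). Il12a, the p35 chain of interleukin-12, had 36, 71 and 59 counts in periodontitis and 77, 128 and 149 in control (log2 fold change -1.09 ± 0.41, edgeR adjusted p = 0.105). The Il12a counts did not overlap, with the lower ones in periodontitis. Its unadjusted edgeR p was 0.0185, and 4983 of the 18697 genes tested had one under 0.05. Il17ra, the shared receptor chain, had 2106, 2743 and 2672 counts in periodontitis and 2675, 2921 and 3801 in control (-0.33 ± 0.15, edgeR adjusted p = 0.167), and these ranges overlapped. Il23r was scarce, with 15, 6 and 3 counts against 4, 3 and 1 (1.499 ± 0.90, edgeR adjusted p = 0.312). Il12b, the p40 chain, had 7, 4 and 0 counts against 1, 0 and 3. With no low-count filter its log2 fold change was 1.39 ± 1.11 (edgeR adjusted p = 0.624).

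**Figure D1:**
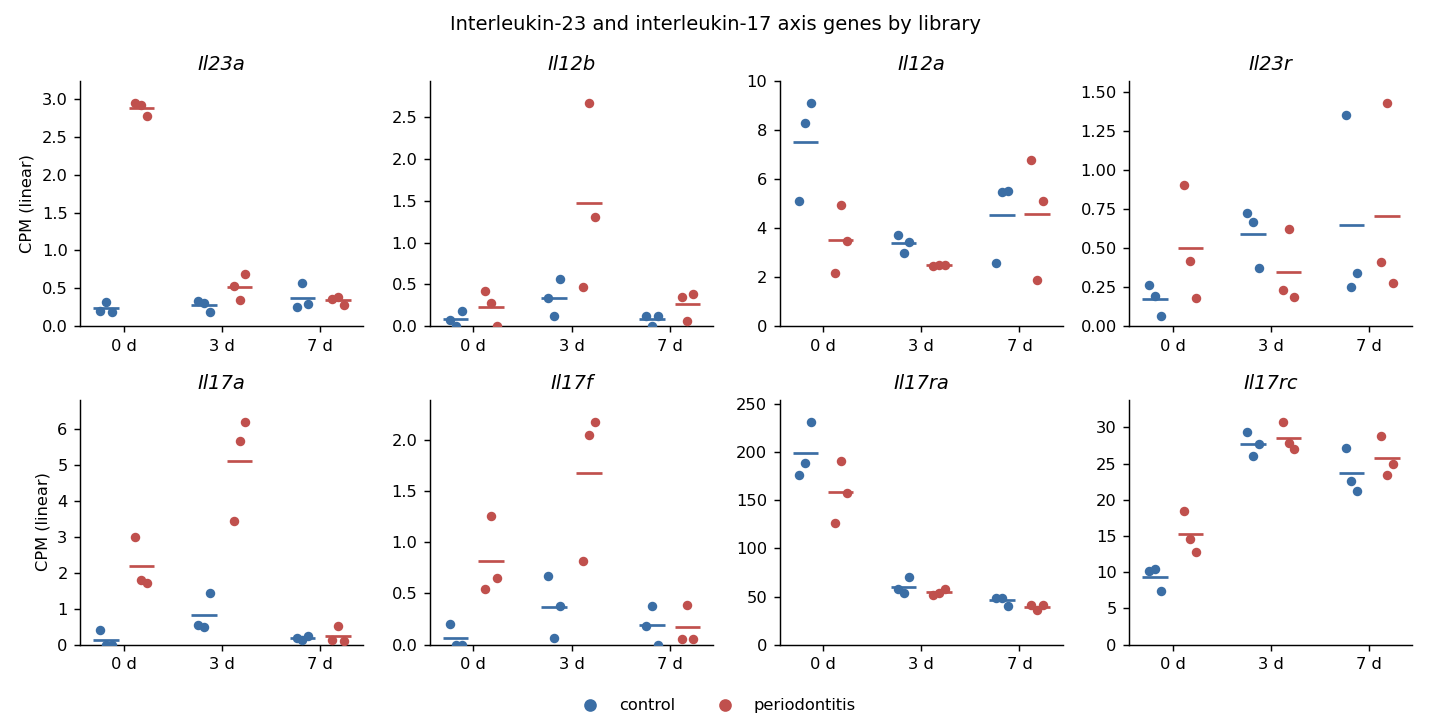
CPM (linear axes) of the 8 genes in each library by day and arm; points are libraries and lines the means of 3. Il23a stands at 2.88 CPM on average in periodontitis at 0 d and below 1 CPM in every other library, whereas Il17a and Il17f have their highest means in periodontitis at 3 d.

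Il23a and Il12a encode alternative partners of p40, and the share of Il23a among the counts of both was taken in each library. In periodontitis at 0 d Il23a made up 57.6%, 37.2% and 44.3% of these counts, with 95% Wilson intervals from 28.8% to 67.6% over the 3 libraries. In the control libraries at 0 d the share was 1.97% to 3.76%. The remaining groups lay between 4.90% and 21.6%, so the periodontitis libraries at 0 d stood apart from all 15 others. The intervals cover counting error only, and the share is of counts, not of protein or of counts per length.

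**Figure D2:**
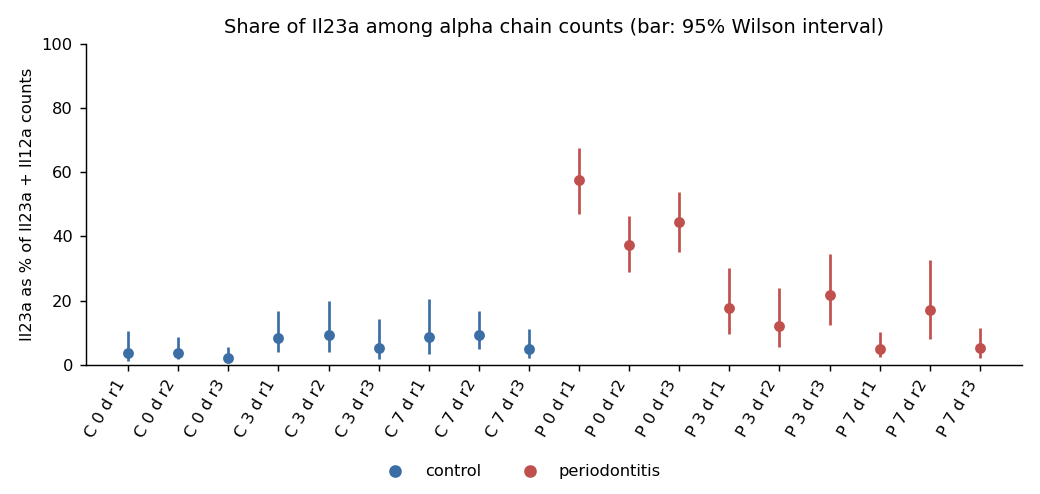
Share of Il23a in the summed counts of Il23a and Il12a (percent, vertical axis) in each library (C control, P periodontitis); bars are 95% Wilson intervals. The 3 periodontitis libraries at 0 d lie between 37.2% and 57.6%, and the control libraries at 0 d between 1.97% and 3.76%.

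At 3 d the interleukin-17 genes had higher counts in periodontitis while Il23a had returned to low counts. Il17a had 59, 100 and 100 counts in periodontitis and 10, 8 and 23 in control, or 5.11 ± 1.47 against 0.822 ± 0.525 CPM. The groups did not overlap. The log2 fold change of 2.63 ± 0.71 did not pass the test across all genes (edgeR adjusted p = 0.175), but DESeq2 called it (2.65, adjusted p = 0.00566). Il17f had 14, 36 and 35 counts against 12, 1 and 6 (2.16 ± 0.91, edgeR adjusted p = 0.503), again without overlap in counts. Il23a had 9, 6 and 11 counts against 6, 5 and 3 (0.88 ± 0.43, edgeR adjusted p = 0.634).

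Il12b had its highest counts in periodontitis at 3 d, at 8, 47 and 21, against 6, 2 and 9 in control. These groups overlapped, and with no low-count filter the log2 fold change was 2.11 ± 0.86 (edgeR adjusted p = 0.721). Il12a had 42, 44 and 40 counts against 67, 49 and 55, and Il23r 4, 11 and 3 against 13, 11 and 6. Neither receptor chain of interleukin-17 passed the test, with Il17ra at -0.15 ± 0.15 and Il17rc at 0.04 ± 0.15 on the log2 scale (edgeR adjusted p = 0.961 and 0.99). By edgeR, 0 of the 7 tested members were called at 3 d, where 0.134% of all genes were called. Il17a and Il17f were among 1544 of the 18697 genes tested with an unadjusted edgeR p under 0.05. DESeq2 called 1 member, Il17a, and the number of all genes it called is not given here.

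At 7 d no tested member passed the test between arms, and the ligand genes had few counts in both. Il17a had 2, 8 and 2 counts in periodontitis and 3, 2 and 4 in control, and Il17f 1, 6 and 1 against 3, 6 and 0. Il23a had 6, 6 and 5 counts against 4, 9 and 5. Log2 fold changes of the 7 tested members ran from -0.22 (Il17ra) to 0.41 (Il17a), each within 2 SE of 0. By edgeR 0 members and 0% of all genes were called at 7 d; an unadjusted p under 0.05 was found for 0 members and 1188 genes, and an adjusted DESeq2 p under 0.05 for 0 members and 112 genes. Il17a, Il17f and Il23a had fewer than 10 counts in every library at 7 d, so small differences in them were not detectable at this depth.

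**Figure D3:**
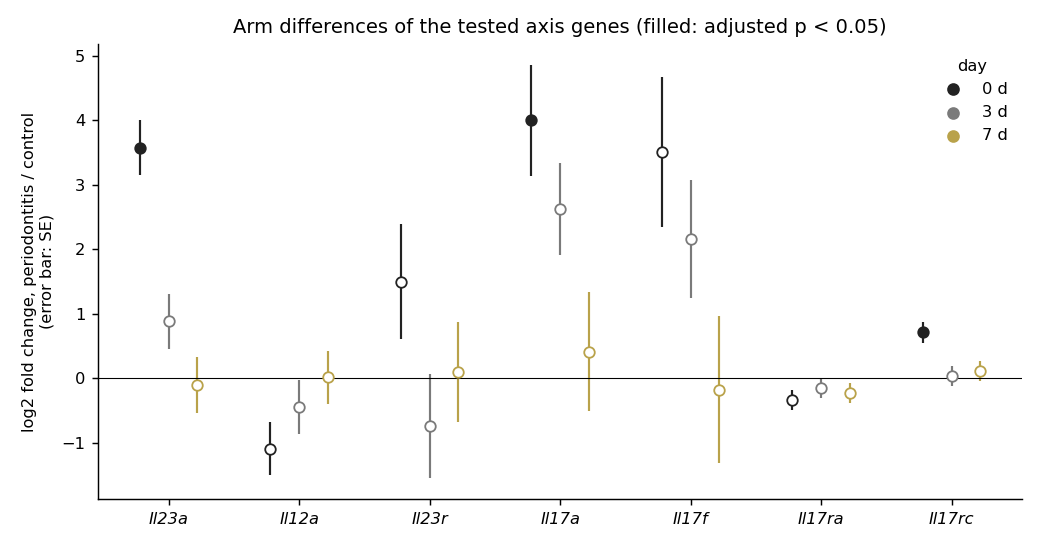
Log2 fold change of periodontitis against control (vertical axis, bars ± SE) for the 7 tested genes at 0 d, 3 d and 7 d; filled points have an edgeR adjusted p under 0.05. Filled points are Il23a, Il17a and Il17rc at 0 d, and values at 7 d lie between -0.22 and 0.41.

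Averaged over the days, Il23a was higher in periodontitis by 1.45 ± 0.25 and Il17a by 2.35 ± 0.49 on the log2 scale (edgeR adjusted p = 0.00436 and 0.0127). These were 2 of 7 tested members, where 4.67% of all genes were called. Both had passed the filter mainly through periodontitis libraries. The values were 1.64 and 2.28 when the ganglion-rich libraries were left out, and neither was called (edgeR adjusted p = 0.07 and 0.0917). DESeq2 also called Il17rc and Il17f in this comparison, so 4 members, and the number of all genes it called is not given here.

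Over time within the control arm, the receptor chains of interleukin-17 moved in opposite directions. Il17ra had 2675, 2921 and 3801 counts at 0 d, then 1030, 882 and 1128 at 3 d and 785, 778 and 709 at 7 d. Its log2 change was -1.73 ± 0.15 by 3 d and -2.12 ± 0.16 by 7 d (edgeR adjusted p = 1.27e-06 and 1.03e-07). Il17rc had 153, 161 and 121 counts at 0 d, then 527, 431 and 446, and 440, 360 and 373. It rose by 1.57 ± 0.16 and 1.35 ± 0.16 (edgeR adjusted p = 4.44e-06 and 9.91e-06). For both chains the 0 d libraries stood apart from all later ones. Per kilobase of gene length, the mean level of Il17ra in control was 23.02 CPM at 0 d and 5.30 at 7 d, and that of Il17rc 3.49 and 8.86.

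From 0 d to 3 d in control, Il17a also rose, by 2.59 ± 0.88, and Il12a fell, by 1.15 on the log2 scale (edgeR adjusted p = 0.032 and 0.0413). Without the ganglion-rich libraries these were 2.89 and -1.03 and neither was called (edgeR adjusted p = 0.0559 and 0.15). Il17a was also not called without control 0 d replicate 2 (2.07), control 0 d replicate 3 (2.02) or control 3 d replicate 3 (1.95), and its value was 6.78 without control 0 d replicate 1, which leaves both 0 d controls at 0 counts. Il12a was called in 7 of 18 fits that left out 1 library, with edgeR adjusted p up to 0.13. Thus 4 of 7 tested members were called from 0 d to 3 d and 2 of 7 from 0 d to 7 d, where 34.7% and 41.3% of all genes were called. From 3 d to 7 d edgeR called 0 members, against 10.9% of all genes. Il17a and Il17ra were among 5210 of the 18697 genes tested with an unadjusted edgeR p under 0.05. Il17a was called by DESeq2 (-2.20, adjusted p = 0.0354), and the number of all genes it called is not given here.

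In the periodontitis arm the receptor chains moved in the same directions, Il17rc by smaller steps than in control. Il17ra went from 2106, 2743 and 2672 counts at 0 d to 882, 947 and 939 at 3 d and 703, 550 and 745 at 7 d, a log2 change of -1.54 ± 0.15 and -2.01 ± 0.16. Il17rc went from 306, 210 and 217 to 529, 491 and 434 and then 492, 361 and 451, a change of 0.90 ± 0.16 and 0.75 ± 0.16. All 4 changes were called by edgeR. When the ganglion-rich libraries were left out, those of Il17ra were called and those of Il17rc were not (0.91 and 0.82, edgeR adjusted p = 0.131 and 0.0505).

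The ligand genes of the periodontitis arm fell at different times. Il23a fell by 2.47 on the log2 scale from 0 d to 3 d (SE 0.39, edgeR adjusted p = 0.000385) and was 3.06 below 0 d at 7 d (log2 change -3.06 ± 0.41, edgeR adjusted p = 4.45e-05). Il17a was not lower at 3 d than at 0 d (1.23 ± 0.66, edgeR adjusted p = 0.211). Between 3 d and 7 d it fell by 4.35 on the log2 scale (SE 0.80, edgeR adjusted p = 0.0115), from 59, 100 and 100 counts to 2, 8 and 2. In that interval Il23a changed by -0.59 ± 0.42 (edgeR adjusted p = 0.37) and Il17f by -3.31 (edgeR adjusted p = 0.0639). Without the ganglion-rich libraries the falls of Il23a to 3 d (-2.05, edgeR adjusted p = 0.249), of Il17a from 3 d to 7 d (-4.67, edgeR adjusted p = 0.159) and of Il17a from 0 d to 7 d (-2.86, edgeR adjusted p = 0.0922) were not called. In this arm 3 members were called from 0 d to 3 d, 4 from 0 d to 7 d and 1 from 3 d to 7 d, where 21.2%, 39% and 4.8% of all genes were called.

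The change over time was compared between arms for each member. The change of Il23a from 0 d to 7 d was lower in periodontitis than in control by 3.68 on the log2 scale (interaction -3.68 ± 0.61, edgeR adjusted p = 0.0421). It was the 1 member called among 7, where 0.0428% of all genes were called. Il23a had passed the filter mainly through the periodontitis libraries at 0 d. It was called in 4 of 18 fits that left out 1 library (control 3 d replicate 3, control 7 d replicate 1, periodontitis 0 d replicate 2 or periodontitis 7 d replicate 2), with edgeR adjusted p between 0.0176 and 0.162, and not without the ganglion-rich libraries (-3.71, edgeR adjusted p = 0.556). To 7 d, Il17rc (-0.59), Il17a (-3.58) and Il17f (-3.68) also had an unadjusted edgeR p under 0.05, as did 2990 of all genes. For the change from 0 d to 3 d edgeR called 0 members and 0.016% of all genes, and DESeq2 called 0 members. Il23a (-2.69 ± 0.61, edgeR adjusted p = 0.178) and Il17rc (-0.67 ± 0.22, edgeR adjusted p = 0.298) were among 2228 genes with an unadjusted edgeR p under 0.05.

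Genes around the axis were read from lists of the pathway. Of 4 tested genes of other interleukin-12 family subunits and receptors, 0 were called between arms at 0 d or 3 d, by edgeR; the smallest p at 0 d was that of Il12rb1, which encodes a chain shared by the interleukin-12 and interleukin-23 receptors (-0.52 ± 0.28, edgeR adjusted p = 0.255). Of 5 tested interleukin-17 family genes outside the axis, Il17rd, a receptor chain known to modulate interleukin-17 signals, was higher at 0 d by 1.27 ± 0.29 (edgeR adjusted p = 0.0207). Its value was 0.51 when the ganglion-rich libraries were left out (edgeR adjusted p = 0.722). Il22, a cytokine often made with interleukin-17, was at 0.176 ± 0.174 CPM or less in every group.

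Downstream, 4 of 12 tested adaptors and regulators of the interleukin-17 receptor were higher in periodontitis at 0 d and 0 were lower, where 8.27% of all genes were called, with a list median of 0.18 against -0.02 over all genes. Tnfaip3, the A20 feedback inhibitor, was at 358 ± 117 CPM against 114 ± 18.9 (1.65 ± 0.24, edgeR adjusted p = 0.0036). Nfkbiz, a nuclear cofactor needed for many interleukin-17 targets, was at 408 ± 129 against 155 ± 33.9 CPM (1.40 ± 0.23, edgeR adjusted p = 0.00543). Traf4, which competes for the Act1 adaptor, rose by 0.53 ± 0.15 (edgeR adjusted p = 0.0399); Zc3h12a, an RNase that limits the pathway, was the fourth, named after its values were seen. Many of these genes respond to other inflammatory signals too. Without the ganglion-rich libraries Tnfaip3 and Nfkbiz were called, at 2.13 and 1.86 (edgeR adjusted p = 0.0119 and 0.0146).

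Of 18 textbook interleukin-17 targets, 3 were higher at 0 d and 0 lower, where 8.27% of all genes were called, with a list median of 0.61 against -0.02 over all genes. Ccl20, the ligand of CCR6 on type 17 cells, was at 5.62 ± 0.916 against 0.864 ± 0.393 CPM (2.69 ± 0.73, edgeR adjusted p = 0.0376). Mmp3, a matrix protease, was higher by 2.37 ± 0.55 and Steap4, a metalloreductase, by 1.02 ± 0.16 (edgeR adjusted p = 0.0209 and 0.00414). With the ganglion-rich libraries left out, Steap4 was called at 1.31 (edgeR adjusted p = 0.0383), and Mmp3 (2.20) and Ccl20 (2.96) were not. At 3 d 0 of the 18 were called by edgeR; Ptgs2, which encodes the inducible prostaglandin synthase, was at 90.4 ± 27.1 against 19.97 ± 5.42 CPM (2.18 ± 0.54, edgeR adjusted p = 0.134).

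Over the mean of the days, 5 targets were higher and 3 lower, where 4.67% of all genes were called. Cxcl2, a neutrophil chemokine, was higher by 2.58 ± 0.44 and Steap4 by 0.61 ± 0.09, while S100a9, a calprotectin chain, was lower by 1.41 on the log2 scale (-1.41 ± 0.24; edgeR adjusted p = 0.00431, 0.00185 and 0.00446). The others, named after their values were seen, were Ptgs2, Cxcl5 and Tnfsf11 on the higher side and S100a8 and Lcn2 on the lower. The 3 lower genes are also abundant in neutrophils. Summed over 9 neutrophil genes the level was 749 to 4084 CPM in periodontitis at 0 d and 5084 to 10301 CPM in control, and 188 to 621 against 1567 to 3091 CPM at 3 d. Their part in the lower targets was not tested.

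**Figure D4:**
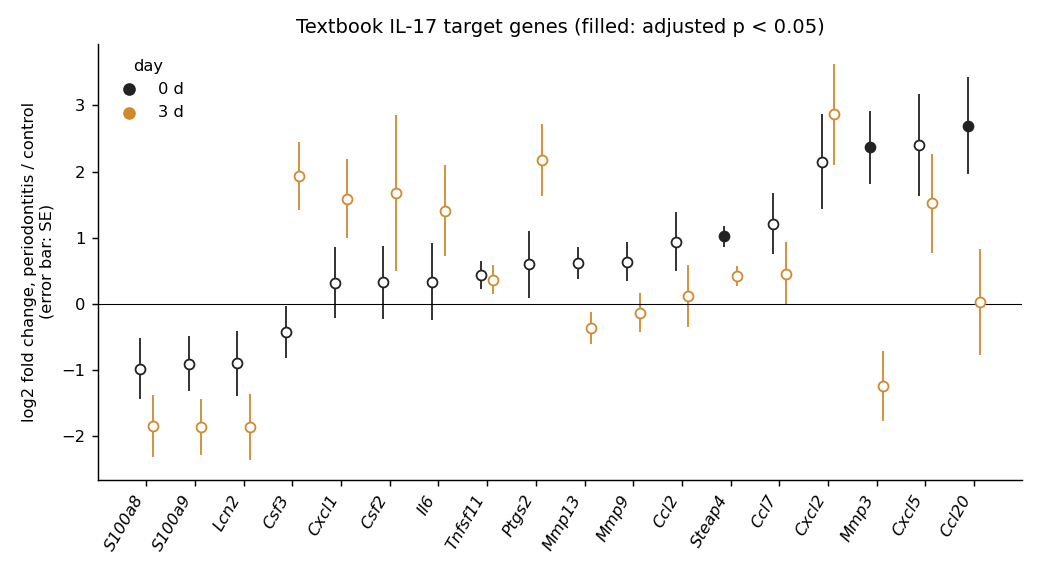
Log2 fold change of periodontitis against control (vertical axis, bars ± SE) of 18 textbook interleukin-17 targets at 0 d and 3 d; filled points have an edgeR adjusted p under 0.05. Filled points are Steap4, Mmp3 and Ccl20 at 0 d, and S100a8, S100a9 and Lcn2 lie below 0 on both days.

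Genes of the lymphocytes that can make interleukin-17 were measured beside the ligands. The type 17 lymphocyte list summed to 331 to 443 CPM in periodontitis and 302 to 348 CPM in control at 0 d. At 3 d the ranges were 259 to 283 and 242 to 291 CPM, and they overlapped on both days. For the mean of days this list had calls in both directions. Irf4 was on the lower side, called in 17 of 18 fits that left out 1 library (-1.14 to -0.85). Over the mean of the days, 4 of 6 gamma delta T cell genes were higher in periodontitis and 0 lower, where 4.67% of all genes were called. At 0 d alone 0 of the 6 were called higher and 1 lower, Blk, a kinase also made by B cells (-1.35 ± 0.35, edgeR adjusted p = 0.0312), and the summed level of the list was 60.2 to 76.1 CPM in periodontitis and 62.1 to 83.5 CPM in control. For the mean of the days, Cd163l1, a scavenger receptor of interleukin-17-making gamma delta T cells, was higher by 1.69 ± 0.34, the receptor gene Tcrg-C1 by 1.88 ± 0.39 and Trdv4 by 1.60 ± 0.41 (edgeR adjusted p = 0.0106, 0.0125 and 0.0383); Trdc, named after its values were seen, was the fourth.

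Cd163l1 had 406, 422 and 377 counts in periodontitis at 3 d and 61, 87 and 163 in control. Tcrg-C1 had 58, 67 and 108 counts against 8, 9 and 32. In both genes all 3 periodontitis libraries at 3 d stood above the control libraries, as they did for Il17a. At 3 d alone 0 of the 6 were called by edgeR, with Trdc at 2.08 ± 0.52 (edgeR adjusted p = 0.134). Without the ganglion-rich libraries Cd163l1 and Tcrg-C1 were at 1.48 and 1.96 over the mean of the days and not called (edgeR adjusted p = 0.0835 and 0.0662).

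The summed level of 10 T cell genes was 22.2 to 24.8 CPM in periodontitis at 3 d and 13.1 to 19.5 CPM in control, without overlap. At 0 d it was 16.2 to 23.4 CPM in periodontitis and 22.6 to 25.3 CPM in control, and these ranges overlapped. None of the 10 genes was at 0 in any library, and the part of T cell content in the Il17a difference was not tested beyond a fit with that level as a covariate, chosen after seeing the data. In that fit the log2 fold change of Il17a was 4.03 at 0 d and 2.44 at 3 d (edgeR adjusted p = 0.0243 and 0.553). Dendritic cell genes, markers of one source of interleukin-23, summed to 36.1 to 51.0 CPM in periodontitis at 0 d and 43.3 to 55.2 CPM in control, and those of monocytes and macrophages to 536 to 693 against 553 to 744 CPM. Both ranges overlapped between arms, and the part of these cells in the Il23a level was not tested.

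**Figure D5:**
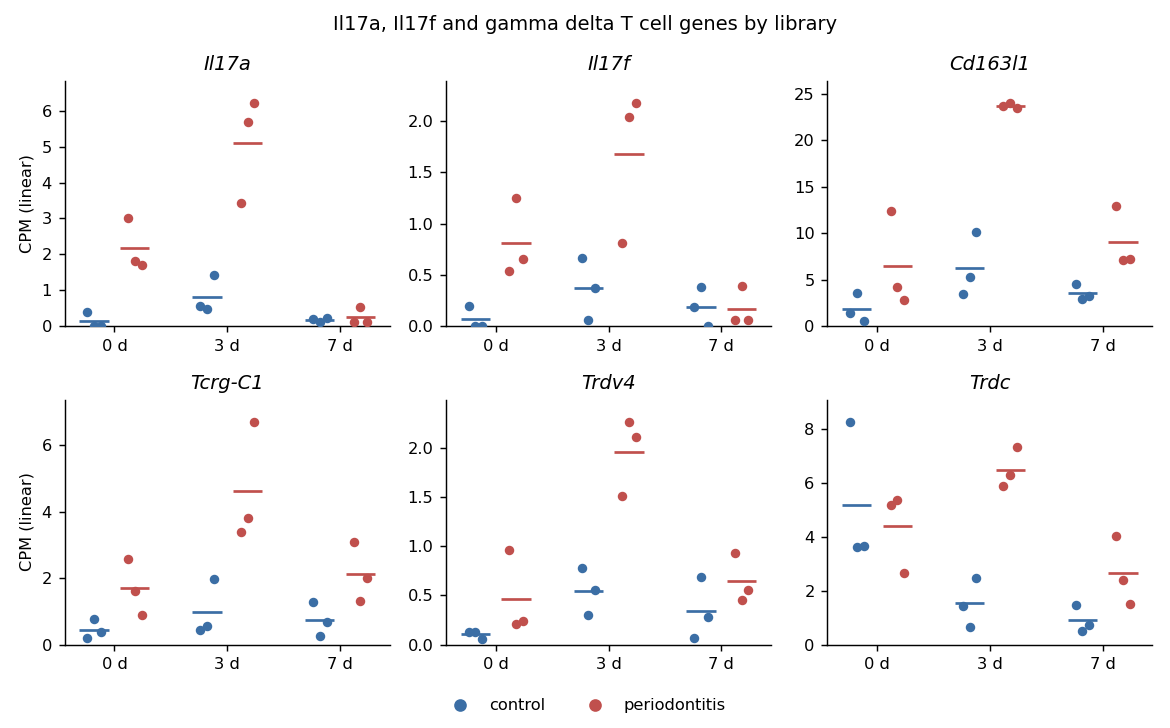
CPM (linear axes) of Il17a, Il17f and 4 gamma delta T cell genes in each library by day and arm; points are libraries and lines the means of 3. In periodontitis at 3 d Il17a averages 5.11 CPM and Cd163l1 lies above every control library.

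Among 15437 other protein-coding genes, those whose log2 CPM followed Il17a most closely over the 18 libraries were Has2, Areg, Pdcd1, Ereg and Ccl22. Their mean absolute difference from Il17a, each gene centred on its own mean, was 0.787, 0.844, 0.857, 0.863 and 0.871, against a median of 1.58 over all genes searched. Has2, a hyaluronan synthase, averaged 29.1 and 27.6 CPM in periodontitis at 0 d and 3 d and 4.52 and 14.7 CPM in control. The 5 ganglion-rich libraries are among the 18, and the likeness is a description.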

How the data were processed

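Per the labels' protocols, TRIzol served for RNA extraction and a NEBNext Ultra RNA kit for library construction. The authors deposited 1 table of whole-number read counts per gene, not normalized, with gene symbols, lengths and coordinates. StringTie, SAMtools and HISAT2 appear in the submitters' processing notes, as does build mm9; which program counted the reads, with what strand setting and which annotation, is not given in the sources used here. All 8 members have coordinates that match GRCm38, which is therefore the build named, and the lengths per gene are the deposited table's other column used here. Without a stated strand setting, reads of overlapping antisense transcripts cannot be told apart.

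Counts were tested in edgeR 4.0.16 (limma 3.58.1, R 4.3.3): filterByExpr on the 6 groups kept 18697 of 54532 genes, TMM scaling, glmQLFit and glmQLFTest on all 18 libraries, and Benjamini-Hochberg adjustment over all genes within each of 12 comparisons, called under 0.05. SE is the log2 fold change divided by the square root of F. Fold changes used a prior count of 0.125 and log2 CPM one of 2. The procedure was tested on simulated data. Its changed genes were drawn from genes with higher mean levels than Il23a (0.768 CPM) and Il17a (1.44 CPM), so it does not cover members at such low levels. Alternatives were DESeq2 1.42.0, other scalings, filters and prior counts, each library left out, the compared groups alone, a replicate block, marker covariates and removal of libraries with over 100 CPM of Vip; a T cell covariate was added after seeing the data. Counts of all 18 replicate pairs differed beyond sampling noise (chi-square per gene at least 8.52). The labels give no batch.

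The members and gene lists were chosen with earlier results of these data known. The 8 members are always named; of each list, the called genes with the smallest p are named, up to 3, or at most 2 where none is called. 1 gene of the lists is not reported here.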

Additional observations from a re-analysis of the deposited data

Results flagged for a closer look

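The change of Il23a from 0 d to 7 d differed between the arms by -3.68 on the log2 scale (SE 0.61, edgeR adjusted p = 0.0421, Benjamini-Hochberg), which met the test of a difference between groups. Il23a had 49, 42 and 47 counts in periodontitis at 0 d and 6, 6 and 5 at 7 d, against 3, 5 and 3 and then 4, 9 and 5 in control. The adjusted p was above 0.05 in 14 of 18 fits that left out 1 library.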

How the results depend on the processing

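Of 214 gene results, 6319 values under the alternatives were computed: 5883 kept their direction and side of the threshold, 303 lost the call, 76 gained one and 57 changed sign. The cause was not tested. Il23a at 0 d was called in all 18 fits that left out 1 library, at 3.42 to 3.89, and under every other alternative run. The number of members called between arms at 0 d (3) was 1 with only the compared groups, without the ganglion-rich libraries or with the ganglion covariate, and 1 to 4 when 1 library was left out. At 3 d (0) DESeq2 gave 1. For the mean of days (2), DESeq2 gave 4, removal of the ganglion-rich libraries 0, and leaving out 1 library 2 to 3. From 0 d to 3 d in control (4), removal of the ganglion-rich libraries, the muscle covariate and the T cell covariate each gave 2, and leaving out 1 library 2 to 5. From 3 d to 7 d in control (0), DESeq2 and the ganglion covariate gave 1, and leaving out 1 library 0 to 1. In periodontitis, removal of the ganglion-rich libraries gave 1 from 0 d to 3 d (3), 2 from 0 d to 7 d (4) and 0 from 3 d to 7 d (1). For the last of these the T cell covariate gave 0, no low-count filter and the ganglion covariate 2 and DESeq2 3. For the arm difference in the change to 7 d (1), the compared groups alone, the replicate block, removal of the ganglion-rich libraries and the ganglion, muscle and T cell covariates gave 0, and leaving out 1 library 0 to 1.

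Whether replicate numbers pair the libraries could not be settled. Of 9 same-numbered pairs of 1 day, 5 had deviations correlated over 0.1 (r -0.19 to 0.66). Over all 45 same-numbered pairs, 10 were over 0.1 (r -0.59 to 0.66). The pair at 0.66, control 3 d replicate 2 and periodontitis 3 d replicate 2, were both ganglion-rich libraries. A differently numbered pair, control 3 d replicate 1 and periodontitis 3 d replicate 3, reached 0.52. With a replicate block 3 members were called at 0 d, 3 for the mean of days (Il17rc added, edgeR adjusted p = 0.03) and 3 from 0 d to 3 d in control.

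Signs changed in 31 results, of which 1 (Prph at 0 d, a ganglion gene, -0.23 with the ganglion covariate) was called. With the T cell covariate these were Il23a from 0 d to 3 d in control (-0.076), Il12a at 7 d (-0.12), Il17rc at 3 d (-0.15) and from 3 d to 7 d in periodontitis (0.00022), Stat3 and Il18rap at 3 d (-0.15 and -0.052) and the arm differences of Il17ra (-0.11 to 3 d, -0.0030 to 7 d). With the muscle covariate they were Il12a (-0.027) and Il23r (-0.0034) at 7 d and Il23r from 0 d to 7 d in periodontitis (-0.30), and with library totals Il12a at 7 d (-0.025). Without the ganglion-rich libraries they were Il12a from 0 d to 7 d in periodontitis (-0.089), Il23r for the mean of days (-0.044), the arm differences of Il17ra (-0.070 and -0.16), Il17rc (-0.062) and Ret (-0.13) at 3 d and Stat3 at 0 d (0.039). With the ganglion covariate they were Il23r for the mean of days (-0.0051), Il17ra to 7 d (-0.14) and Ret at 3 d (-0.068).

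Leaving out 1 library gave, at 7 d between arms, -0.29 to 0.37 for Il23a, -0.34 to 0.39 for Il12a, -0.91 to 1.23 for Il23r, -0.63 to 0.78 for Il17a, -1.57 to 0.82 for Il17f, -0.58 to 0.077 for Il27, -2.10 to 3.23 for Ckm and -0.96 to 1.88 for Mylpf. At 3 d it gave -0.011 to 0.086 for Il17rc, -0.47 to 0.079 for Il17d, -1.39 to 0.29 for Epcam and -0.13 to 6.12 for Chat. For the mean of days it gave -0.049 to 0.68 for Il23r, -0.012 to 0.21 for Il18rap and -0.39 to 0.0058 for Tbx21. Over time it gave in control -0.084 to 0.56 for Il23a and -1.02 to 0.48 for Il23r from 3 d to 7 d and -0.12 to 4.62 for Il17a from 0 d to 7 d. In periodontitis Il23r gave -1.23 to 0.26 to 3 d, -0.53 to 1.23 to 7 d and -0.030 to 1.68 between them, and the arm difference of Il17ra to 7 d was -0.024 to 0.26. Depth limits Il12b, Il23r, Il17a, Il17f and Il23a most, since most libraries had under 20 counts of them.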
